A study of Mus musculus with 4 samples.

Results

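The miR-181 family was followed through its 2 guide strand assays on the cards, mmu-miR-181a and mmu-miR-181c, here miR-181a and miR-181c. They were taken from the 517 mouse miRNA assays of the table as those that bear the number of the family and whose names do not end in an asterisk, and no measured value entered that choice. Bronchoalveolar stem cells (BASCs) came from lungs of ICR mice aged 4 to 6 weeks, sorted as CD31neg, CD45neg, CD34pos and Sca-1pos and plated on irradiated mouse embryonic fibroblasts. Once established they were kept, by different passages of the study, on collagen or on such fibroblasts, and on which the 4 samples were grown is not given. There were 4 samples, of which 2 were control BASCs and 2 were BASCs with c-Myc depletion, stable puromycin-selected lines that carried a lentiviral c-Myc shRNA. By the methods of the study a negative control vector existed, but the labels say only control, and they do not state whether replicates were separate infections or cultures. P-values therefore measure the spread between these samples, which may be technical. The comparison asks which miRNAs differ once c-Myc, a transcription factor that drives proliferation, is reduced in BASCs.

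MicroRNAs of the miR-181 family are short RNAs that guide a silencing complex to mRNAs, chiefly by pairing of the seed, bases 2 to 8 of the mature strand. Their genes lie in pairs on mouse chromosomes 1, 2 and 8. miR-181a is known for its high level in thymocytes, where it sets the sensitivity of T cell receptor signalling, for a role in B cell differentiation, and for a rise during differentiation of skeletal muscle cells. The mature strands are shown here because all share the seed, in capitals, and differ outside it (RefSeq, GRCm38.p6):
mmu-miR-181a-5p: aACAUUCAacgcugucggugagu
mmu-miR-181b-5p: aACAUUCAuugcugucgguggguu
mmu-miR-181c-5p: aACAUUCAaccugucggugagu
mmu-miR-181d-5p: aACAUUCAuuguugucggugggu

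Of 1679 mature mouse names in that table these 4 alone carry the seed ACAUUCA. The miR-181c strand has 22 bases against 23 in miR-181a and is a single edit away from it, while miR-181b and miR-181d are each 4 edits away. miR-181b and miR-181d were not analysed here. To what extent the miR-181a assay also reads the near-identical strands was not tested.

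miR-181a is cut from both Mir181a-1 and Mir181a-2, so its assay reads the sum of these genes. The opposite strands of the hairpins differ from each other by 2 edits, and the card held an assay for the one from Mir181a-1, named miR-181a-1* (now miR-181a-1-3p). The hairpins are printed with both mature strands in capitals to show which part each assay reads, the guide strand first and the passenger strand second. Mir181a-1 lies at chr1:137966455-137966541 and Mir181a-2 at chr2:38852735-38852810, both on the plus strand of GRCm38.p6, the former beside Mir181b-1 and the latter within the span of Nr6a1, a nuclear receptor gene, and of its antisense transcript Nr6a1os.
Mir181a-1: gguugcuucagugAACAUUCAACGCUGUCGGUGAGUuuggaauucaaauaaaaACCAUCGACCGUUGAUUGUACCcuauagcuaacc
Mir181a-2: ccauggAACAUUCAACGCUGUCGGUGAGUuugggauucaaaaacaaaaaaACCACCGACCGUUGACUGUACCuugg

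Levels were read as threshold cycles (CT), the PCR cycle at which a well crosses a fixed signal, so that a lower CT means more RNA and 1 cycle corresponds to 1 on the log2 scale. Each sample was run on 2 cards of 384 wells, A and B, and between 334 and 351 of its 768 wells gave a CT. Empty wells and those over CT 35 were counted as 35, and ΔCT is the CT minus the mean of the 4 wells of U6, a small nuclear RNA, on the same card. In every sample 189 mouse miRNAs lay below CT 35, 130 of them on card A.

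mmu-miR-181a was present at a low level in every sample, and its level was not distinguishable between control and c-Myc depleted BASCs. Control replicates 1 and 2 read CT 31.996 and 31.998, depleted replicate 1 read 31.004 and depleted replicate 2 read 31.614. Both depleted samples thus lay on the side of more RNA, with replicate 1 farther from the controls than replicate 2. After U6 subtraction the controls stood at a ΔCT of 13.1 and 12.9, against 12.1 and 12.8 with c-Myc depletion. The groups did not overlap, as was also the case, with the depleted samples higher, for 33.9% of the 189 miRNAs and for 44.6% of those on card A.

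Control BASCs had a mean ΔCT of 13.0 ± 0.148 and depleted BASCs one of 12.5 ± 0.446 (SD, n = 2 each). Its log2 change, positive where the depleted samples are higher, was 0.54 with a standard error of 0.29 and an adjusted p of 0.312 (limma, fitted over the 189 miRNAs and adjusted by the Benjamini-Hochberg method). The unadjusted p was 0.136 in limma. The 95% interval of the log2 change ran from -0.26 to 1.33, that is from 0.835-fold to 2.52-fold around an estimate of 1.45-fold. In the same fit 12 miRNAs passed an adjusted p of 0.05, or 6.35% of those tested, and miR-181a was not among them. Of the 12, miR-17, miR-19b, miR-34a, miR-34c, miR-106b, miR-126-3p and miR-130a had CT values that equal a rounded ΔCT plus the U6 mean. Whether those are raw readings was not tested. An exact two-sided permutation test of miR-181a gave p = 0.333, which is the smallest that 2 samples against 2 can give. Without depleted replicate 1 the log2 change was 0.22, and without depleted replicate 2 it was 0.85.

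By the study's filter, a lowest ΔCT below 10, miR-181a would not have been tested, since its lowest ΔCT was 12.1. Of the 80 miRNAs that pass that filter 32.5% had an adjusted p below 0.05 in limma, so a call was rarer among the larger set that holds miR-181a.

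**Figure D1:**
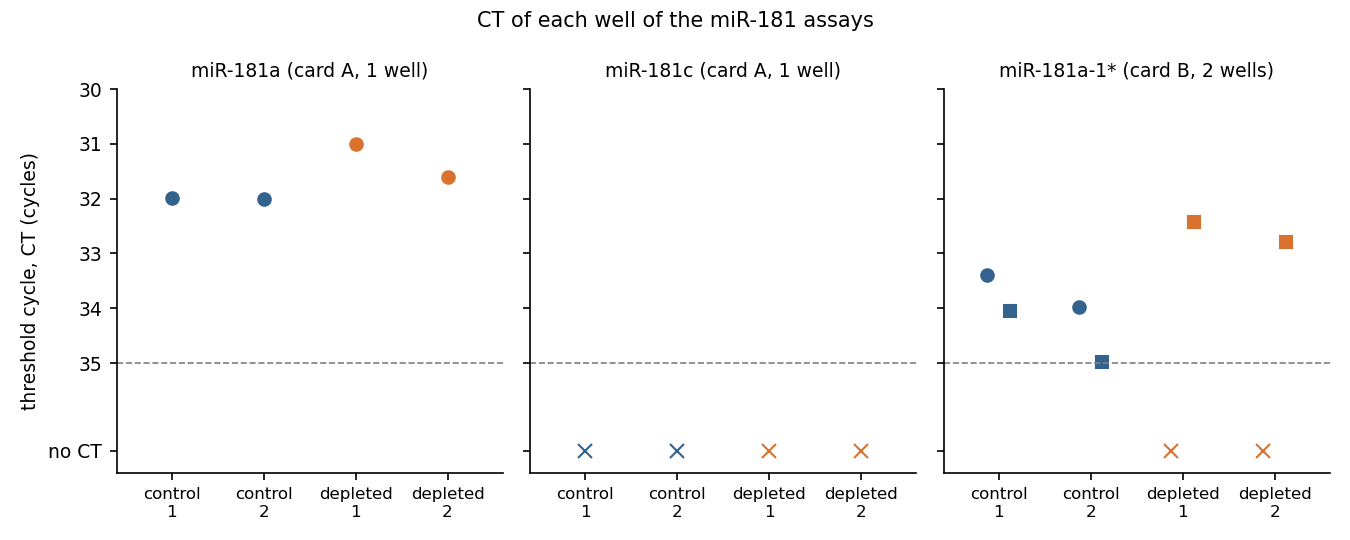
CT of each well (vertical axis, in cycles, reversed so that more RNA is up) of miR-181a, miR-181c and miR-181a-1* in control replicates 1 and 2 (blue) and depleted replicates 1 and 2 (orange); circles and squares are the first and second well of an assay, crosses are wells with no CT, and the dashed line is the ceiling of 35. miR-181a lies between 31.004 and 31.998, miR-181c has crosses alone, and each depleted sample of miR-181a-1* has a cross beside a well below 33.

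In copies per cell, by the formula of the study, which applies the calibration of a synthetic lin-4 RNA to every assay and assumes 30 pg of total RNA per cell, miR-181a had 11.3 copies in each control, 22.4 in depleted replicate 1 and 14.7 in depleted replicate 2. The means were 11.3 ± 0.00951 and 18.6 ± 5.44 (SD, n = 2 each). With U6 set equal in the 4 samples they were 11.9 ± 1.22 and 17.7 ± 5.35, so the small control SD held only for CT as deposited. The difference of these means rests mostly on depleted replicate 1. In bulk RNA a level of this kind cannot tell fewer cells that hold the miRNA from less of it per cell.

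mmu-miR-181c gave no CT in any of the 4 samples, neither in control nor in depleted BASCs. It has 1 well per sample, on card A, where 146 of the 335 mouse assays likewise had no CT in any sample. A CT at the ceiling of 35 would correspond to 1.43 copies per cell by the same formula, so any miR-181c lay below that level if its assay works as the calibration assumes. No sample here gave the assay a signal, and its own performance was not tested. No change of miR-181c and no difference between the changes of the 2 members could therefore be computed.

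Mir181c is followed in the annotation by Mir23a, Mir27a and Mir24-2, which are thought to form a separate transcript. Their guide strands were read by assays on card A as well. miR-23a, like miR-181c, had no CT in any sample. miR-24, which also arises from a second gene elsewhere, was abundant, with a CT from 22.69 to 22.99 over the 4 samples. Its log2 change was -0.23 (standard error 0.19, adjusted p = 0.498 from limma). The CT of miR-27a was 27.9 in all 4 samples, and its log2 change was -0.15 (standard error 0.19, adjusted p = 0.666 from limma). miR-24-2* and miR-27a*, the passenger strands from the same hairpins as miR-24 and miR-27a, were looked at after their values were seen, and every well of both gave a CT between 28.90 and 29.99. Signal was thus read from hairpins beside Mir181c in the samples in which miR-181c itself gave none.

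The passenger strand miR-181a-1* is the only reading here that belongs to Mir181a-1 alone, and it could not be given a direction. It has 2 wells per sample on card B. Control replicate 1 read CT 33.39 and 34.05, control replicate 2 read 33.98 and 34.98, depleted replicate 1 read no CT and 32.4, and depleted replicate 2 read no CT and 32.8. In each depleted sample the well with a CT was lower than every control well, while the other well stayed empty. With empty wells set to 35 the ΔCT was 14.2 and 14.6 in the controls and 14.8 in both depleted samples. The log2 change on that basis was -0.43, with a standard error of 0.24 and an adjusted p of 0.315 in limma. With empty wells left out the log2 change was 0.77 (standard error 0.25, adjusted p = 0.117 from limma). The sign is therefore set by how a well without a CT is treated. Among the assays with 2 wells on card B and a lowest CT between 32 and 35, 8 of 23 in depleted replicate 1 and 5 of 23 in depleted replicate 2 had 1 empty well, and so did 8 of 26 and 7 of 23 in the controls.

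The change of miR-181a was close to that of the card it was read on. The 130 miRNAs of card A had a median log2 change of 0.41, with quartiles at -0.12 and 0.88, and 58 of them changed by more than miR-181a in the upward direction. On card B the median of 59 miRNAs was -0.43, which is the value of miR-181a-1* itself. U6 itself came up earlier in depleted than in control samples, by 0.151 cycles on card A against 0.722 on card B. Before U6 was subtracted the log2 change of miR-181a was 0.69, against a median of 0.56 on card A. miR-181a lay 0.13 above the median of card A, a distance that any reference subtracted from the whole card leaves as it is, and 0.22 above it under quantile normalization. The part of the reference RNA in the change was not tested.

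**Figure D2:**
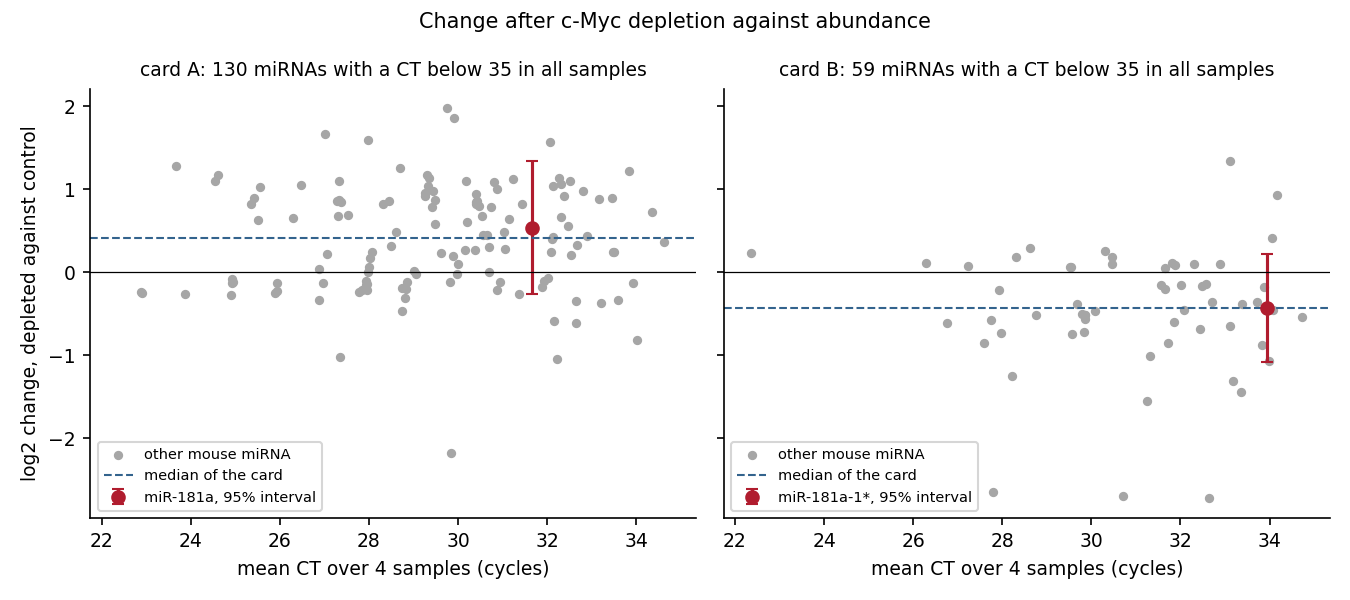
Log2 change after c-Myc depletion (vertical axis, limma with U6 of the same card) against the mean CT over the 4 samples (horizontal axis, in cycles) for the mouse miRNAs with a CT below 35 in all samples, 130 on card A and 59 on card B. miR-181a and miR-181a-1* are in red with their 95% intervals, the dashed line is the median of each card, 0.41 and -0.43, and both red points lie near it with intervals that cross 0.

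**Figure D3:**
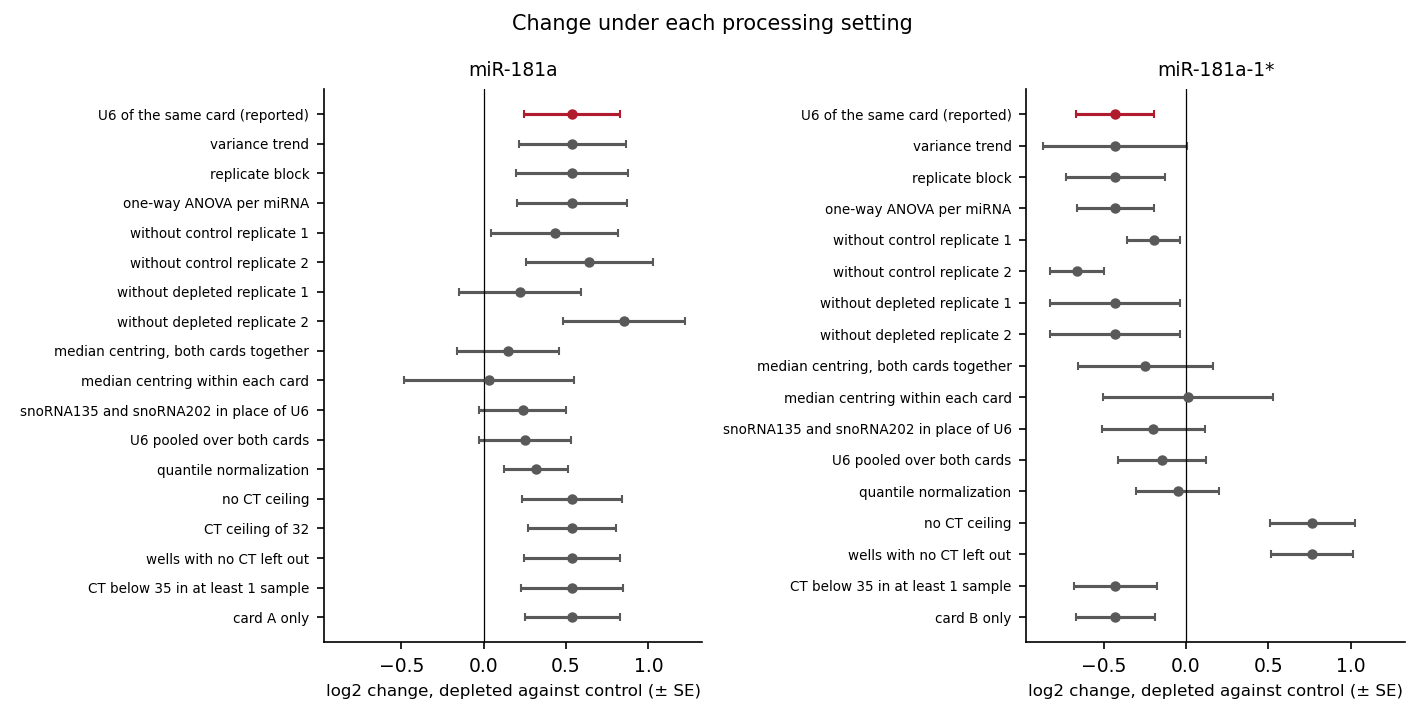
Log2 change of miR-181a and of miR-181a-1* (horizontal axes, point and standard error) under each processing setting, the reported setting in red. Every value of miR-181a lies above 0, from 0.03 to 0.85, though only another reference or normalization could have changed its sign. Those of miR-181a-1* lie from -0.66 to 0.77 and pass to the positive side when empty wells are left out and, at 0.0127, when each card is centred on its median.

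At the CT of miR-181a replicates of other miRNAs commonly lay well apart. Among the 33 other miRNAs of card A whose mean CT lay within 1 cycle of it, the CT of the control replicates differed by a median of 0.401 cycles and that of the depleted replicates by 0.465. The control replicates of miR-181a differed by 0.00172 cycles, less than those of all 33, and its depleted replicates by 0.609, with 11 of the 33 farther apart. After U6 subtraction, the scale of the fit, its controls differed by 0.209 in ΔCT, against a median of 0.330, and 25 of the 33 were farther apart. The standard error of miR-181a, 0.29, lay below the median of 0.339 of these 33 and above the median of 0.246 on card A. The median log2 change of these 33 miRNAs was 0.42, with 23 higher after depletion, and 1 of them had an adjusted p below 0.05 in limma.

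The near-equal control CT values fall within a feature of the whole table. CT values were not spread evenly over the cycle. Values with 0.9 or more after the decimal point, which would be 10% of evenly spread ones, made up 45.1% and 49.7% of the miRNA wells with a CT in the control replicates. In depleted replicate 1 they made up 33.1% and in depleted replicate 2 55.0%. Both control readings of miR-181a were of this kind, and both of its depleted readings were not. On card A, 22 of 130 miRNAs had both controls in this stretch of the same cycle, which of itself holds their CT values within that stretch of each other. The origin of the uneven spread was not tested.

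**Figure D4:**
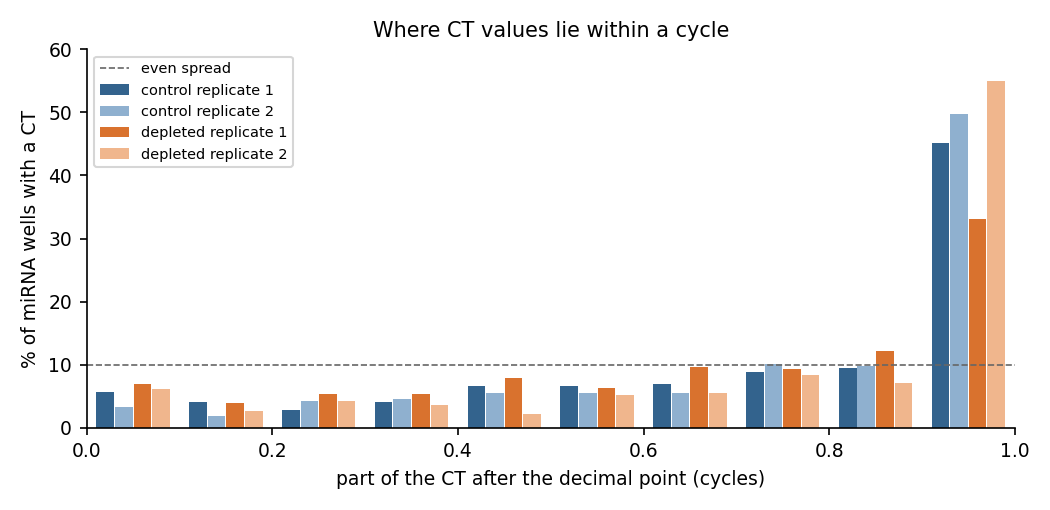
Share of miRNA wells with a CT (vertical axis, in %) by the part of the CT after the decimal point (horizontal axis, in cycles) in the 4 samples, with the even share of 10% as a dashed line. The stretch from 0.9 upward holds from 33.1% to 55.0% of the wells, and both control values of miR-181a fall in it.

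The miRNAs whose profile was most like that of miR-181a were searched on card A as the smallest root mean square difference of ΔCT over the 4 samples, each profile centred on its own mean. Of 129 miRNAs, miR-296-5p came first with a difference of 0.0505 cycles, before miR-301b with 0.0787 and miR-140 with 0.107. Their log2 changes were 0.48, 0.45 and 0.63, with standard errors of 0.30, 0.28 and 0.24, and adjusted p-values in limma of 0.368, 0.368 and 0.166. In each of the 3, as in miR-181a, depleted replicate 1 had the lowest ΔCT. That, and log2 changes near that of miR-181a, largely follow from how the 3 were picked. With 4 samples the search is a description of shape.

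miRNAs listed for blood and muscle, the cell types in which miR-181a is best known, were read at uneven levels. Of 9 listed for blood cells and lymphocytes 8 were assayed, all 8 had a CT below 35 in some sample, and 3 had one in all samples. These were miR-150, miR-155 and miR-146a, with log2 changes of -0.13, -0.13 and -0.34, against a median of 0.41 over the miRNAs of card A, on which all 3 were read, and none had an adjusted p below 0.05 in limma. miR-155, which is induced in activated lymphocytes and also found in other cells, had a CT from 25.91 to 25.96 over the 4 samples and lay at 0.745% and 0.876% of U6 in the controls and at 0.757% and 0.724% in depleted replicates 1 and 2. The other blood miRNAs together came to between 0.00853% and 0.0969% of U6, so the list's level was chiefly that of miR-155.

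miR-142-3p and miR-142-5p, which are found across blood cells, had a CT below 35 in control replicate 1 alone, at 33.82 and 32.02, and so had miR-451 of red blood cells, at 32.2. miR-486, also of red blood cells, read CT 29.0 and 29.1 in depleted replicates 1 and 2 and gave no CT in either control. The 2 red cell miRNAs thus had their signal in different groups. Of the 6 miRNAs listed for muscle, miR-206 alone had a CT below 35 in all samples. Its ΔCT was 14.42 and 14.44 in the controls, 14.36 in depleted replicate 1, where one of its wells was empty, and 11.83 in depleted replicate 2. The log2 change of miR-206 was 1.34, with a standard error of 0.90 and an adjusted p of 0.403 in limma. It was 0.07 without depleted replicate 2 and 2.60 without depleted replicate 1. miR-1 and miR-133b never had a CT below 35.

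Neither c-Myc nor SP-C and CCA, the proteins that mark BASCs, are read by these cards. Both listed endothelial miRNAs, the strands of miR-126, had a CT below 35 in all samples, and they summed to 0.108% and 0.122% of U6 in the controls and to 0.0283% and 0.0252% with c-Myc depletion. miR-126-3p fell by 2.18 on the log2 scale (standard error 0.21, adjusted p = 0.0254 from limma). Its log2 change lay between -2.31 and -2.05 when each sample was left out. Such fits leave a lone sample in a group, so their p-values are not given. All 4 CT values of miR-126-3p equal a rounded ΔCT plus the U6 mean of the card, and whether they are raw readings was not tested. The log2 change of miR-126-5p was -0.82 (adjusted p = 0.204 from limma). Of 8 epithelial miRNAs 6 had a CT below 35 in some sample and miR-200c alone had one in all, with a log2 change of -0.34 and an adjusted p of 0.647 in limma. The epithelial sum was 0.0435% and 0.0149% of U6 in control replicates 1 and 2, against 0.0115% and 0.0042% in depleted replicates 1 and 2. It rested on 5 and 3 assays in the controls and on 2 and 1 in the depleted samples. All of them read CT 31.5 or later, so the sums depend on which assays stayed below CT 35.

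Of the 6 assayed miRNAs of fibroblasts and other mesenchyme 5 had a CT below 35 in all samples. That list summed to between 3.53% and 4.07% of U6 in the controls and to between 4.998% and 5.204% in the depleted samples. It had a median log2 change of 0.82, with 4 of 5 higher and none past an adjusted p of 0.05 in limma over the 189 miRNAs. On card A, which holds all 5, 88 of 130 miRNAs were higher, with a median of 0.41. miR-181a alone was at 0.0114% and 0.0132% of U6 in the controls and at 0.0221% and 0.0143% in depleted replicates 1 and 2, well below miR-155 and the mesenchymal list. The part of any other cell type in the level of miR-181a was not tested.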

How the data were processed

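MiRNAs were measured with TaqMan Rodent MicroRNA Array cards A and B on an ABI PRISM real-time PCR instrument. The label field names SYBR Green, whereas the protocols describe TaqMan assays. The table that the authors deposited as non-normalized holds threshold cycles, a score in PCR cycles, which by the methods came from RQ manager software. The submitters' processing notes also name Partek 6.4. Each column carried the label of 1 of the 4 samples, but single values recurred between them. The ΔCT of miR-34b-3p in depleted replicate 2, 11.0558, is that of miR-34a in control replicate 1. Some CT values on card A equal a rounded ΔCT plus the U6 mean, those of miR-126-3p and miR-214 among them. For miR-126-3p in depleted replicate 1, CT 30.73246275 is 11.8722 plus 18.86026275. Values of miR-181a were not of this kind. How the recurring and rounded values arose was not tested.

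Empty wells and CT values over 35 were counted as 35, replicate wells were averaged, and the U6 mean of the card was subtracted. Levels of a list in % of U6 were summed over the assays with a CT below 35 in the sample, without the others. limma 3.58.1 in R 4.3.3 was run on minus ΔCT. The study's filter, a lowest ΔCT below 10, excluded both members, so values come from the 189 mouse miRNAs with a CT below 35 in all samples. Copies per cell followed the study's formula, with intercept 40, slope 3.34 and divisor 22. Tables and plots used Python 3.11.15, pandas 2.3.3, scipy 1.17.1 and matplotlib 3.10.9. The scripts were tested on simulated ΔCT. The number of samples limits the precision.

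Earlier results of these data were known when members, lists and tests were chosen, though the members were taken by name alone. Named were the members, other miR-181 assays, miRNAs beside Mir181c, the 3 closest profiles, and the lists of blood, muscle and other cell types. Alternatives were other references, ceilings, filters and treatments of empty wells, a variance trend, one-way ANOVA as in the methods, a replicate block and leaving out each sample. Gene neighbours are those of GRCm38.p6.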

Additional observations from a re-analysis of the deposited data

How the results depend on the processing

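The log2 change of miR-181a stayed positive under all 17 alternatives, from 0.0339 (median centring within each card) to 0.85. Of these, 16 were in limma and the other was one-way ANOVA. Apart from fits that left out a sample, adjusted p-values in these tests ran from 0.214 to 0.979. Ceilings, filters and test models left the change at 0.54, as they could not move a single well below CT 32. Leaving out a sample could not reverse it, since the groups did not overlap. Its sign could thus change only with another reference or normalization. Leaving out each sample gave 0.22 to 0.85, where the lone sample of a group is assumed to vary like the other group. It was 0.15 with median centring of both cards together, 0.24 with snoRNA135 and snoRNA202, 0.25 with U6 pooled over both cards and 0.32 with quantile normalization, and the median of the 189 miRNAs moved from 0.09 with U6 to -0.08 with median centring of both cards. For miR-181a-1* the sign reversed in 3 of 16 alternatives, to 0.77 with no CT ceiling and with wells with no CT left out, and to 0.0127 with median centring within each card.

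With the study's filter 26 of 80 miRNAs passed an adjusted p of 0.05 in limma, 20 higher and 6 lower. The number was 12 (9 higher, 3 lower) over CT below 35 in all 4 samples, 2 over CT below 35 in at least 1 sample, 17 with ΔCT below 10 in all 4 samples (14 higher), 14 with pooled U6 (12 higher), 4 with quantile normalization (0 higher), 3 with median centring of both cards (1 higher), 1 with median centring within each card (0 higher) and 3 with one-way ANOVA per miRNA (3 higher). With snoRNA135 and snoRNA202 it was 18, 12 of them higher. It ranged from 0 to 25 when each sample was left out, 1 without depleted replicate 1 and 0 without depleted replicate 2, where 5 had an unadjusted p below 0.05 in limma.

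Same-numbered samples did not deviate together (correlation across 189 miRNAs -0.01). With a single replicate difference per group this cannot tell whether they were handled together. With the replicate block the adjusted p of miR-181a was 0.381 for a log2 change of 0.54, and 0 miRNAs of 80 were called by limma, with 26 at an unadjusted p below 0.05. Copies per cell of miR-181a were 11.9 in the controls with U6 equal in the 4 samples, and 249 and 409 in control and depleted samples without the division by 22. No value could be given for miR-181a with ΔCT below 10 in all 4 samples, for miR-181a-1* with a ceiling of 32, or for the difference between miR-181a and miR-181c. Depth is limited for miR-181c by the absence of a CT in any well, before any ceiling, and for miR-181a-1* by CT values within 3 cycles of 35.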
